A study of Rattus norvegicus with 9 samples.

Results

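Messenger RNA levels of 10 genes for the polymerases, sliding clamp and associated enzymes of the DNA replication fork were examined in cultured heart muscle cells taken from the ventricles of newborn rats. The genes Pola1, Pole, Pold1, Prim1, Pcna, Rfc3, Rfc4, Fen1, Lig1 and Rpa2 were chosen by symbol from the 28935 genes of the count table, and all 10 passed the filter on low counts that left 14151 genes for testing. The myocytes came from Sprague Dawley rats aged 1 or 2 days, were held for 48 h in medium with 3% fetal bovine serum, and then received adenovirus in serum-free medium for 48 h. They carried a virus for Nfya, for Nfe2l1 or for GFP, the green fluorescent protein used as the negative control, with 3 stranded mRNA libraries per virus. All 3 groups therefore share the infection, the volume of virus and the loss of serum, and an uninfected group was not analysed here. The labels name neither the promoter of the viral gene nor the share of infected cells, nor do they state if the 3 libraries of a virus are separate cultures or pooled animals. The p-values thus cover the spread among these libraries alone, and that spread may be technical.

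At the replication fork, DNA polymerase alpha and its primase lay down short RNA and DNA primers, polymerase epsilon copies the leading strand and polymerase delta the lagging strand. The ring-shaped clamp PCNA, loaded by the RFC complex, holds polymerases on the template, while RPA coats the single strands. The nuclease FEN1 and the ligase LIG1 trim and join the lagging-strand fragments. NFYA is the subunit of NF-Y that recognises CCAAT boxes and NF-Y acts at promoters of many cell cycle genes, and NFE2L1 is known for inducing proteasome genes. Heart muscle cells largely leave the cell cycle soon after birth.

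The promoter windows of these genes were read from RefSeq for the rat build GRCr8, which held 1 window of 300 bases (250 before the transcription start and 50 after) for each of the 10 genes. The 250 bases before the start are printed for 4 of them: Pola1 and Pole, with the largest log2 fold changes in the Nfya-labelled libraries against GFP, Rpa2, which had CCAAT boxes but was not called there, and Prim1, whose direction against GFP in the Nfe2l1-labelled libraries differed from that of the other genes called. They lie at chrX:62342356-62342605 on the minus strand (Pola1), chr12:52053663-52053912 on the minus strand (Pole), chr5:150260522-150260771 on the plus strand (Rpa2) and chr7:1031212-1031461 on the plus strand (Prim1). Each is written 5′ to 3′ on the strand of its gene, and capitals mark CCAAT or its reverse complement ATTGG and E2F-type letters or their reverse complement.
Pola1: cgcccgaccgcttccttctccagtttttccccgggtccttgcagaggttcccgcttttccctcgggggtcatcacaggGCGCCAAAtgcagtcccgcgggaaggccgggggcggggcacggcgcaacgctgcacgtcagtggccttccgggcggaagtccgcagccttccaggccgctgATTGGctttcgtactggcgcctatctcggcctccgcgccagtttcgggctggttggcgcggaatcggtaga
Pole: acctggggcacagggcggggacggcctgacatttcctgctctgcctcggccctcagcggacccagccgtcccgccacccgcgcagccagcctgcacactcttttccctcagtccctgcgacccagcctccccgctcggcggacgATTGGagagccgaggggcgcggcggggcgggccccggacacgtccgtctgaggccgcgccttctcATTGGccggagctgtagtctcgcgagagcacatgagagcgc
Rpa2: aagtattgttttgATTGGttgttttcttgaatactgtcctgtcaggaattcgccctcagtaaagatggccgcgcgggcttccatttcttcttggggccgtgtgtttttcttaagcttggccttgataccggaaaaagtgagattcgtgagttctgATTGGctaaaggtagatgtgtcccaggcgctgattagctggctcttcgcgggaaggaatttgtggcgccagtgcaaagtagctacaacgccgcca
Prim1: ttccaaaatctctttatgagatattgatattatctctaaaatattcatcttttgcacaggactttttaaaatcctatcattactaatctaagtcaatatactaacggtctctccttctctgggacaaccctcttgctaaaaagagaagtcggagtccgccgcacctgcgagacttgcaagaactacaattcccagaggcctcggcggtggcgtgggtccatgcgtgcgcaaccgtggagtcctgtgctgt

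CCAAT, the core of the letters that NF-Y binds, was searched on both strands and was found in 7 of the 10 windows, against 37.5% of all 33469 rat promoter windows. It lay on the strand opposite to the gene at position -71 in Pola1, at -106 and -41 in Pole, at -200 in Pold1, at -168 in Pcna, at -224 in Rfc3 and at -237 and -95 in Rpa2, counted from the transcription start. In Prim1 the only match lay on the gene's own strand at position 6, downstream of the bases printed. The E2F-type letters TTTGGCGC, TTTCCCGC, TTTCGCGC and TTTGCCGC, also searched on both strands, were found in 5 of 10 windows (Pola1, Pole, Rfc3, Lig1 and Rpa2), against 2.14% of all windows. In Pole, Rpa2, Rfc3 and Lig1 these matches reached over or lay behind the transcription start, so the printed Pole and Rpa2 bases do not show them. The letters TTTGAA, known from late cell cycle promoters, were in 0 of 10 windows and in 18.3% of all, and TGACNNNGC, the core of the antioxidant response element, was in 2 of 10 (Rfc3 and Rfc4) and in 12.1% of all. No match overlapped another. Of the 13 other subunits of the same complexes, 12 genes had a window, and 4 of these genes held CCAAT and 3 the E2F-type letters. These were counted per gene, where the shares of all are per window. These matches describe the letters of the windows and are no measure of binding.

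Some features of the libraries bear on every value. Totals ranged from 5712123 to 7310774 counts, of which the 10 genes took 3921 to 5936 counts per library. The Nfya transcript stood at 88.3 to 89.6 CPM (counts scaled to library size by TMM) in the Nfya-labelled libraries, at 90.5 to 94.8 CPM in the Nfe2l1-labelled libraries and at 77.8 to 81.9 CPM in GFP. The Nfe2l1 transcript stood at 232.6 to 244.5 CPM in the Nfe2l1-labelled libraries and at 234.2 to 246.3 CPM in GFP. Since the targeted transcripts did not set their own groups apart, the groups are called by their labels and every direction rests on these. Pairs of Nfya-labelled libraries differed by no more than sampling noise (chi-square per degree of freedom 0.962 to 0.997), against 1.06 to 1.70 for GFP pairs and 1.12 to 1.54 for Nfe2l1 pairs. No Nfya pair stood apart from the others, and they were kept as 3 libraries, and summed to 1 in an alternative. Libraries made from a shared pool would look the same, so this check does not show 3 separate cultures. GFP replicate 3 was the shallowest library. The most densely covered gene had 1.45 counts per base of its length as a mean over libraries, and 708 genes exceeded 0.5. A ceiling on coverage would compress the levels and changes of such genes, and its presence was not tested.

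Markers of heart muscle were abundant, with 7 cardiomyocyte markers summing to 2937 to 2985 CPM in the Nfya-labelled libraries, 2645 to 2915 CPM in the Nfe2l1-labelled libraries and 2737 to 3034 CPM in GFP. Against GFP, 2 of the 7 (Myh6 and Myl2) were called higher and none lower in the Nfya-labelled libraries. In the Nfe2l1-labelled libraries 0 of 7 were called. These sums and calls were not recomputed under an assumed ceiling on coverage, so they do not show that the markers were stable. For these and the markers below, 24.3% of all genes tested were called higher and 27.9% lower with the Nfya virus. With the Nfe2l1 virus the shares of all genes were 28.9% and 29.7%. Fibroblast markers were present as well, and 8 of them summed to 1376 to 1389 CPM in the Nfya-labelled libraries and to 1164 to 1248 CPM in the Nfe2l1-labelled ones, against 736.4 to 770.8 CPM in GFP. Against GFP, 7 of these 8 rose in each virus group, and 1, Col1a2, was called lower in the Nfya-labelled libraries. Col1a2 was scarce and its libraries overlapped, with 1.07 to 3.43 CPM in the Nfya-labelled libraries and 0.919 to 17.3 CPM in GFP. The 5 smooth muscle markers summed to 942.3 to 955.8, 675.6 to 699.3 and 865.0 to 875.0 CPM in the Nfya-labelled, Nfe2l1-labelled and GFP libraries, with 3 higher and 1 lower in the Nfya group and 1 higher and 2 lower in the Nfe2l1 group. For the 5 endothelial markers the sums were 342.9 to 354.7, 381.7 to 396.0 and 269.4 to 277.3 CPM, with 4 higher and 1 lower in each virus group. The 5 epicardial markers summed to 99.9 to 115.6, 127.8 to 140.6 and 85.1 to 94.5 CPM, also with 4 higher and 1 lower in each. The 4 tested macrophage markers summed to 60.1 to 70.7, 76.8 to 84.3 and 47.1 to 60.7 CPM, with 3 higher and 1 lower in the Nfya group and 3 higher in the Nfe2l1 group. No marker tested was at 0 in a group. In bulk RNA, a change in the share of dividing or non-muscle cells and a change in RNA per cell cannot be told apart, and the part of these markers in the results below was not tested.

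In the Nfya-labelled libraries against GFP, 6 of the 10 fork genes were called higher and 0 lower by edgeR at adjusted p below 0.05, against 24.3% of all genes tested called higher and 27.9% called lower. These were the catalytic polymerase genes Pola1, Pole and Pold1, the clamp loader genes Rfc3 and Rfc4 and the flap nuclease gene Fen1. In the Nfe2l1-labelled libraries against GFP, 8 were called lower and 1, the primase gene Prim1, higher, against 29.7% and 28.9% of all genes. Between the virus groups, 9 were higher and 1, again Prim1, lower in the Nfya-labelled than in the Nfe2l1-labelled libraries, against 25.2% and 25.4% of all genes. The median log2 fold change over the 10 genes was 0.19, -0.27 and 0.50 in the order of these comparisons, where the median over all genes tested was -0.02, -0.01 and 0.01. Since the first 2 comparisons share the GFP libraries, they are not independent. The summed level of the 10 genes was 870.2 to 892.8 CPM in the Nfya-labelled libraries, 614.6 to 620.8 CPM in the Nfe2l1-labelled libraries and 724.1 to 739.7 CPM in GFP, so that no library of one virus reached the range of another.

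**Figure D1:**
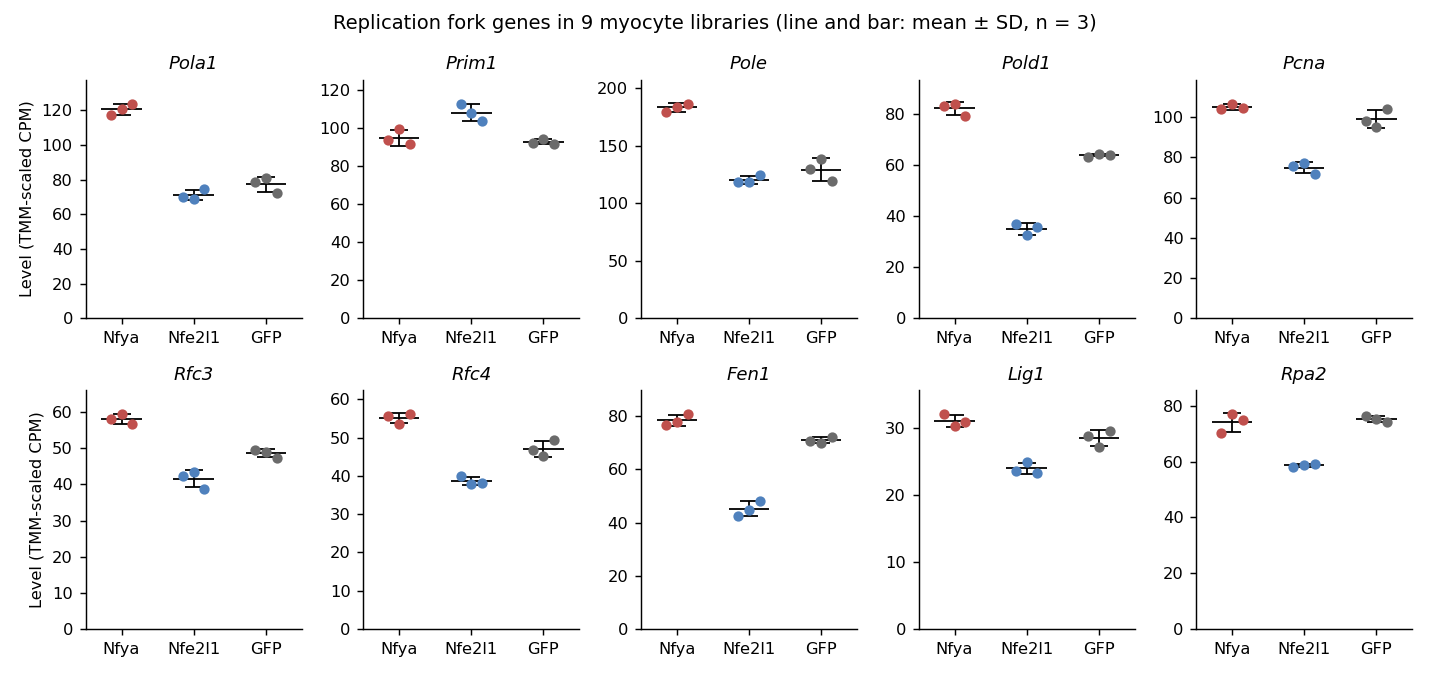
Level of each fork gene in every library (CPM, counts scaled to library size by TMM; 1 panel per gene), with points for the 3 libraries of the Nfya, Nfe2l1 and GFP groups, a line for the mean and error bars of 1 SD. Pold1, Pcna, Rfc3, Rfc4, Fen1 and Lig1 separate all 3 groups, while the Nfya and GFP points overlap for Prim1 and Rpa2.

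Pola1, the catalytic subunit of the polymerase that starts each new strand, had 117.2, 120.7 and 123.9 CPM across the Nfya-labelled libraries, 70.3, 69.0 and 74.6 CPM in those labelled Nfe2l1 and 78.4, 80.8 and 72.5 CPM in GFP. All Nfya-labelled libraries lay above every other library, and the Nfe2l1-labelled and GFP libraries overlapped. Pola1 rose 1.56-fold with the Nfya virus against GFP (log2 fold change 0.64 ± 0.04 SE, adjusted p = 5.31e-09) and was 1.69-fold higher than in the Nfe2l1-labelled libraries (0.76 ± 0.04, adjusted p = 8.83e-10). Its value in the Nfe2l1-labelled libraries against GFP was -0.12 ± 0.05, called at adjusted p = 0.0467. That call is fragile: it was lost in 18 of 22 alternatives, among them the fits without Nfya replicate 1, 2 or 3, Nfe2l1 replicate 1 or 2, or GFP replicate 1 or 2 (adjusted p = 0.0516 to 0.314). The value was -0.07 ± 0.05 without GFP replicate 2.

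Pole, the catalytic subunit of the leading-strand polymerase, had 179.2, 183.7 and 186.4 CPM across the Nfya-labelled libraries, 118.3, 118.3 and 124.1 CPM in those labelled Nfe2l1 and 129.5, 138.6 and 119.1 CPM in GFP. As for Pola1, the Nfya-labelled libraries stood apart from the other 6, and the lowest GFP value was that of replicate 3. Pole rose 1.41-fold with the Nfya virus against GFP (0.50 ± 0.04, adjusted p = 7.82e-08) and was 1.52-fold higher than in the Nfe2l1-labelled libraries (0.61 ± 0.04, adjusted p = 9.56e-09). In the Nfe2l1-labelled libraries it stood at -0.11 ± 0.05 against GFP and was not called (adjusted p = 0.0610). That value depended on the GFP library left out: it was -0.04 ± 0.04 without GFP replicate 2 (adjusted p = 0.504), and -0.16 ± 0.04, called lower, without GFP replicate 3 (adjusted p = 0.00343). It was called in 2 of 22 alternatives.

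Pold1, the catalytic subunit of the lagging-strand polymerase, showed a different pattern from Pola1 and Pole. Its level was 83.1, 84.0 and 79.3 CPM across the Nfya-labelled libraries, 36.8, 32.4 and 35.7 CPM in those labelled Nfe2l1 and 63.3, 64.3 and 64.0 CPM in GFP, with no overlap between any of the groups. It rose by 0.36 ± 0.04 with the Nfya virus against GFP (1.29-fold, adjusted p = 3.83e-06) and fell to 0.549 of the GFP level in the Nfe2l1-labelled libraries (-0.87 ± 0.05, adjusted p = 1.16e-09). The 2.34-fold difference between the Nfya- and Nfe2l1-labelled libraries (1.23 ± 0.05, adjusted p = 1.86e-11) was the largest of the 10 genes.

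Prim1, the catalytic subunit of the primase that works in 1 complex with Pola1, moved the other way. It had 93.6, 99.5 and 91.6 CPM across the Nfya-labelled libraries, 112.9, 107.7 and 103.9 CPM in those labelled Nfe2l1 and 92.4, 94.4 and 91.8 CPM in GFP. Here the Nfe2l1-labelled libraries were the high ones, and the Nfya-labelled libraries overlapped with GFP. Prim1 rose 1.16-fold with the Nfe2l1 virus against GFP (0.22 ± 0.04, adjusted p = 2.67e-04) and was lower in the Nfya-labelled than in the Nfe2l1-labelled libraries (-0.19 ± 0.04, adjusted p = 0.00108). In the Nfya-labelled libraries against GFP it stood at 0.03 ± 0.04 (adjusted p = 0.625).

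Pcna, the clamp, had 104.2, 106.8 and 104.5 CPM across the Nfya-labelled libraries, 75.7, 77.4 and 71.9 CPM in those labelled Nfe2l1 and 98.4, 95.3 and 104.0 CPM in GFP. The Nfe2l1-labelled libraries were clearly the low ones, while the lowest Nfya-labelled library nearly touched GFP replicate 3, the highest of its group. Pcna fell to 0.756 of the GFP level in the Nfe2l1-labelled libraries (-0.40 ± 0.04, adjusted p = 5.73e-07) and was 1.41-fold higher in the Nfya- than in the Nfe2l1-labelled libraries (0.49 ± 0.04, adjusted p = 6.84e-08). Its value in the Nfya-labelled libraries against GFP, 0.09 ± 0.04, was not called (adjusted p = 0.0947), but passed in 11 of 22 alternatives, including those without Nfe2l1 replicate 1 (adjusted p = 0.0250), Nfe2l1 replicate 3 (0.0162) or GFP replicate 3 (0.0407). The authors' deposited table gives 0.12 with an FDR of 0.0196 for it. Pcna was the most densely covered of the 10 genes, with 0.524 counts per base of its length as a mean over libraries, against 0.0595 to 0.405 for the others.

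The clamp loader subunits Rfc3 and Rfc4 moved alike in size. Rfc3 had 58.1, 59.4 and 56.8 CPM across the Nfya-labelled libraries, 42.4, 43.6 and 38.9 CPM in those labelled Nfe2l1 and 49.5, 48.9 and 47.4 CPM in GFP. Rfc4 had 55.6, 53.6 and 56.1 CPM across the Nfya-labelled libraries, 40.0, 37.8 and 38.2 CPM in those labelled Nfe2l1 and 46.7, 45.1 and 49.4 CPM in GFP. For both genes all Nfya-labelled libraries lay above GFP and all Nfe2l1-labelled libraries below it. In the Nfya-labelled libraries against GFP, Rfc3 rose by 0.26 ± 0.05 (adjusted p = 3.97e-04) and Rfc4 by 0.23 ± 0.05 (adjusted p = 0.00114). In the Nfe2l1-labelled libraries Rfc3 stood at -0.23 ± 0.05 (adjusted p = 0.00209) and Rfc4 at -0.28 ± 0.05 (adjusted p = 2.58e-04). The call of Rfc3 was lost without Nfe2l1 replicate 3 (-0.16, adjusted p = 0.0595) and with DESeq2 (adjusted p = 0.0627). Between the virus groups Rfc3 was 1.40-fold and Rfc4 1.43-fold higher in the Nfya-labelled libraries (adjusted p = 8.13e-07 and 4.10e-07).

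Fen1, the nuclease that removes the displaced flap of a lagging-strand fragment, had 76.8, 77.7 and 80.7 CPM across the Nfya-labelled libraries, 42.6, 44.7 and 48.1 CPM in those labelled Nfe2l1 and 70.6, 69.9 and 72.2 CPM in GFP. The groups did not overlap, with the wider gap below GFP. Fen1 fell to 0.639 of the GFP level in the Nfe2l1-labelled libraries (-0.65 ± 0.05, adjusted p = 1.67e-08) and was 1.73-fold higher in the Nfya- than in the Nfe2l1-labelled libraries (0.79 ± 0.05, adjusted p = 1.65e-09). Its rise in the Nfya-labelled libraries against GFP was 0.15 ± 0.04 (adjusted p = 0.0146), lost without Nfya replicate 3 (0.12, adjusted p = 0.0760) and with DESeq2 (adjusted p = 0.140). The RefSeq gene table places Fen1 over Tmem258 on the opposite strand, and Lig1, Pola1 and Pole also overlap other genes or pseudogenes there. The strand setting of the authors' counting is not given in the sources used here, so the share of a neighbour's reads in these 4 counts is unknown.

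Lig1, the ligase that seals the trimmed fragments, had 32.0, 30.2 and 30.9 CPM across the Nfya-labelled libraries, 23.6, 24.9 and 23.3 CPM in those labelled Nfe2l1 and 28.8, 27.2 and 29.5 CPM in GFP. It had the fewest counts of the 10 genes. Its value in the Nfya-labelled libraries against GFP was 0.13 ± 0.06 by edgeR and 0.14 ± 0.13 by DESeq2. That value did not pass (edgeR adjusted p = 0.210) although the libraries did not overlap. In the Nfe2l1-labelled libraries it stood at -0.25 ± 0.07 (adjusted p = 0.0116), a call lost without Nfe2l1 replicate 3 (-0.22, adjusted p = 0.0622) and with DESeq2 (adjusted p = 0.123). The Nfya-labelled libraries exceeded the Nfe2l1-labelled ones 1.30-fold (adjusted p = 1.50e-04).

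Rpa2, the middle subunit of the single-strand binding protein RPA, had 70.3, 77.0 and 75.0 CPM across the Nfya-labelled libraries, 58.2, 58.8 and 59.2 CPM in those labelled Nfe2l1 and 76.5, 75.2 and 74.1 CPM in GFP. Only the Nfe2l1-labelled libraries stood apart, and they were low. Rpa2 fell by 0.36 ± 0.04 against GFP in the Nfe2l1-labelled libraries (adjusted p = 3.17e-06), and stood at -0.02 ± 0.04 in the Nfya-labelled libraries (adjusted p = 0.754). The difference between the Nfya- and Nfe2l1-labelled libraries was 0.34 ± 0.04 (adjusted p = 8.09e-06).

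**Figure D2:**
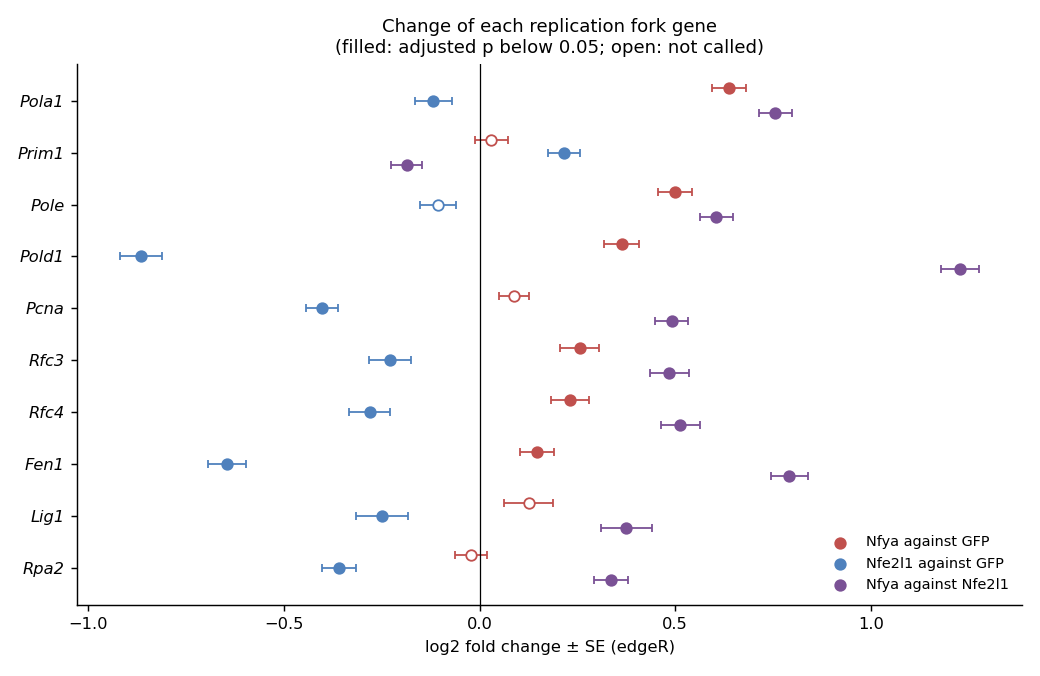
Log2 fold change of each fork gene (horizontal axis, with bars of 1 SE) for the Nfya and the Nfe2l1 group, each against GFP, and for the Nfya against the Nfe2l1 group, with filled points for genes called at adjusted p below 0.05. Pola1 leads in the first comparison at 0.64 and Pold1 in the others, at -0.87 and 1.23. In those others Prim1 lies on the other side of 0 from the rest. Bars in the first comparison are shorter than the SEs given by DESeq2, as are at least those of Pola1, Rfc3 and Lig1 for Nfe2l1 against GFP.

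Across the 10 genes, 8 had Nfya-labelled libraries that all lay above GFP, where 28.4% of all genes tested did, and 0 lay wholly below it, where 33.2% did. In the Nfe2l1-labelled libraries 7 lay wholly below GFP and 1 wholly above, against 32.4% and 31.7% of all genes. Between the virus groups no gene of the 10 overlapped, with 9 higher and 1 lower in the Nfya-labelled libraries, against 30.3% and 29.7% of all genes. Against GFP, 5 genes were called in opposite directions by virus, higher with the Nfya virus and lower with the Nfe2l1 virus: Pola1, Pold1, Rfc3, Rfc4 and Fen1, where 2.3% of all genes tested were. For Pola1 this rests on the Nfe2l1 call that was lost in 18 of 22 alternatives and on libraries that overlapped with GFP. The authors' deposited tables, at an FDR below 0.05, hold 7 of the 10 genes as higher for Nfya, and 7 as lower and 1 as higher for Nfe2l1. In the authors' deposited table Pola1 has an FDR of 0.0708 for Nfe2l1 and is not among those 7.

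Levels of different genes were compared on the deposited RPKM scale, which divides reads by gene length. In the Nfya-labelled libraries the mean RPKM was highest for Pcna at 91.4, followed by Prim1 at 59.9, Rfc4 at 47.0, Rfc3 at 45.1, Fen1 at 36.4, Rpa2 at 35.1, Pole at 26.0, Pola1 at 22.8, Pold1 at 20.0 and Lig1 at 10.2. The libraries of Rfc4 and Rfc3 overlapped in that order, as did those of Fen1 and Rpa2. In the Nfe2l1-labelled libraries Prim1 led at 67.3 RPKM and overlapped with Pcna at 64.2, and the lowest were Pold1 at 8.39 and Lig1 at 7.80, which also overlapped. In GFP the order began with Pcna at 85.2 RPKM and Prim1 at 58.0 and ended with Pola1 at 14.5 and Lig1 at 9.30. Of the 10 genes, Pcna and Prim1 were thus the most abundant per length in all 3 groups. Neither these levels nor the ratios below were recomputed under an assumed ceiling on coverage, so the size of the gaps between genes is uncertain.

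Ratios within each library relate genes that work together and do not depend on library scaling. Prim1 exceeded Pola1 by an RPKM ratio of 2.63 ± 0.147 in the Nfya-labelled libraries, 5.07 ± 0.373 in the Nfe2l1-labelled libraries and 4.01 ± 0.178 in GFP (SD, n = 3 each). The 3 groups did not overlap in this ratio. Pold1 relative to Pole stood at 0.769 ± 0.0349 in the Nfya-labelled libraries, 0.499 ± 0.0323 in the Nfe2l1-labelled libraries and 0.851 ± 0.0640 in GFP, again without overlap, although the highest Nfya-labelled and the lowest GFP library nearly touched. Fen1 relative to Lig1 was 3.55 ± 0.160 in the Nfya-labelled libraries, 2.65 ± 0.217 in the Nfe2l1-labelled libraries and 3.50 ± 0.101 in GFP. In this ratio the Nfya-labelled libraries overlapped with GFP, and the Nfe2l1-labelled libraries lay below both. Rfc3 relative to Rfc4 was 0.962 ± 0.0439, 0.982 ± 0.0630 and 0.943 ± 0.0597 in the same order of groups, and all groups overlapped. Each of the 12 comparisons was tested with a two-sided exact permutation test. With 3 libraries against 3 the smallest p it allows is 0.1, reached by the 8 comparisons without overlap (0.15 adjusted over the 12), so no difference in ratio could pass 0.05.

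**Figure D3:**
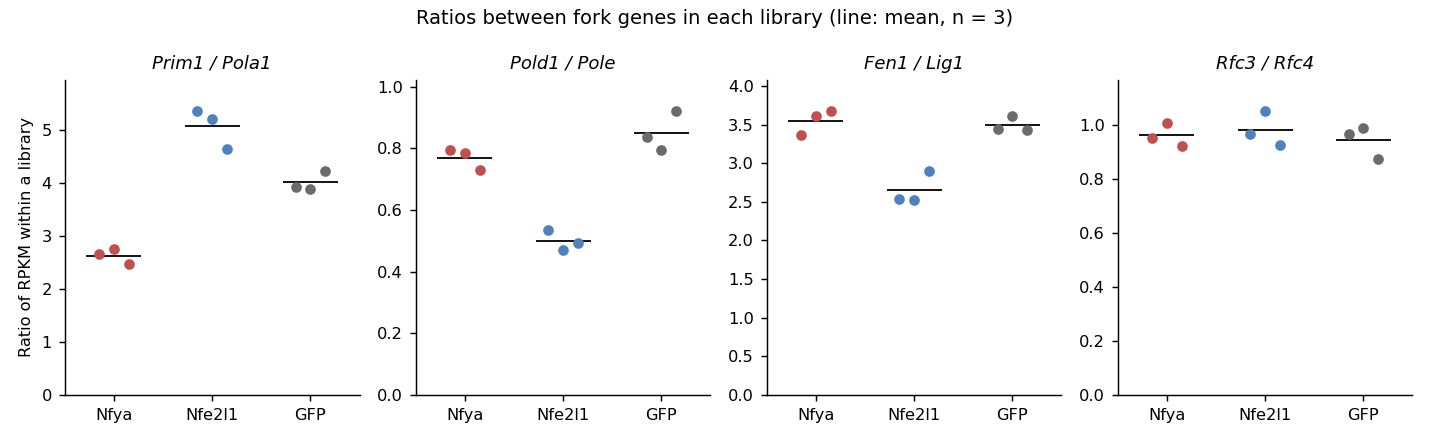
RPKM ratio of gene pairs that work together, 1 point per library for the Nfya, Nfe2l1 and GFP groups, with the mean as a line. The ratio of Prim1 to Pola1 is lowest in the Nfya-labelled libraries (2.63) and highest in the Nfe2l1-labelled libraries (5.07), while Rfc3 to Rfc4 stays near 1 in each group.

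The other subunits of the same polymerase, clamp loader and RPA complexes were described by a list of 13 genes, all tested. In the Nfya-labelled libraries against GFP 6 were called higher (46.2%) and 1 lower (7.69%), against 24.3% and 27.9% of all genes tested (median log2 fold change 0.15). In the Nfe2l1-labelled libraries 0 were higher and 8 lower (61.5%) than in GFP, against 28.9% and 29.7% (median -0.26). Between the virus groups 8 were higher (61.5%) and 0 lower in the Nfya-labelled libraries, against 25.2% and 25.4% (median 0.38). Pole2, the second subunit of polymerase epsilon, stood out with 33.7 ± 0.986 CPM in the Nfya-labelled libraries, 11.3 ± 0.131 CPM in the Nfe2l1-labelled libraries and 21.7 ± 1.72 CPM in GFP (SD, n = 3 each). It rose by 0.63 ± 0.07 with the Nfya virus and fell by 0.94 ± 0.09 with the Nfe2l1 virus, each against GFP, a difference of 1.57 ± 0.08 between the virus groups (adjusted p = 2.96e-10).

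Within a complex the subunits did not all move together. In the polymerase alpha complex, the accessory subunit Pola2 (0.23 and -0.28 with the Nfya and the Nfe2l1 virus against GFP) and the large primase subunit Prim2 (0.21 and -0.35) were called higher and lower, unlike Prim1. In polymerase epsilon, the histone-fold subunit Pole3 was called lower with both viruses (-0.20 and -0.39), the Nfya call being lost in 17 of 22 alternatives, while Pole4 was called with neither (-0.09 and 0.02). In polymerase delta, Pold2 was called in both comparisons (0.26 and -0.19), the PCNA-binding subunit Pold3 was called higher with the Nfya virus alone (0.43, and 0.04 with the Nfe2l1 virus), and Pold4 was not called (0.17 and 0.03). The large clamp loader subunit Rfc1 was called in neither comparison (-0.04 and -0.06), Rfc2 was called lower with the Nfe2l1 virus (-0.26, and 0.13 with the Nfya virus), and Rfc5 was called in both (0.15 and -0.60). Of the RPA subunits, Rpa1 fell like Rpa2 with the Nfe2l1 virus (-0.44 ± 0.03, adjusted p = 4.15e-09) and stood at -0.01 with the Nfya virus, and Rpa3 was not called (0.09 and 0.17).

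**Figure D4:**
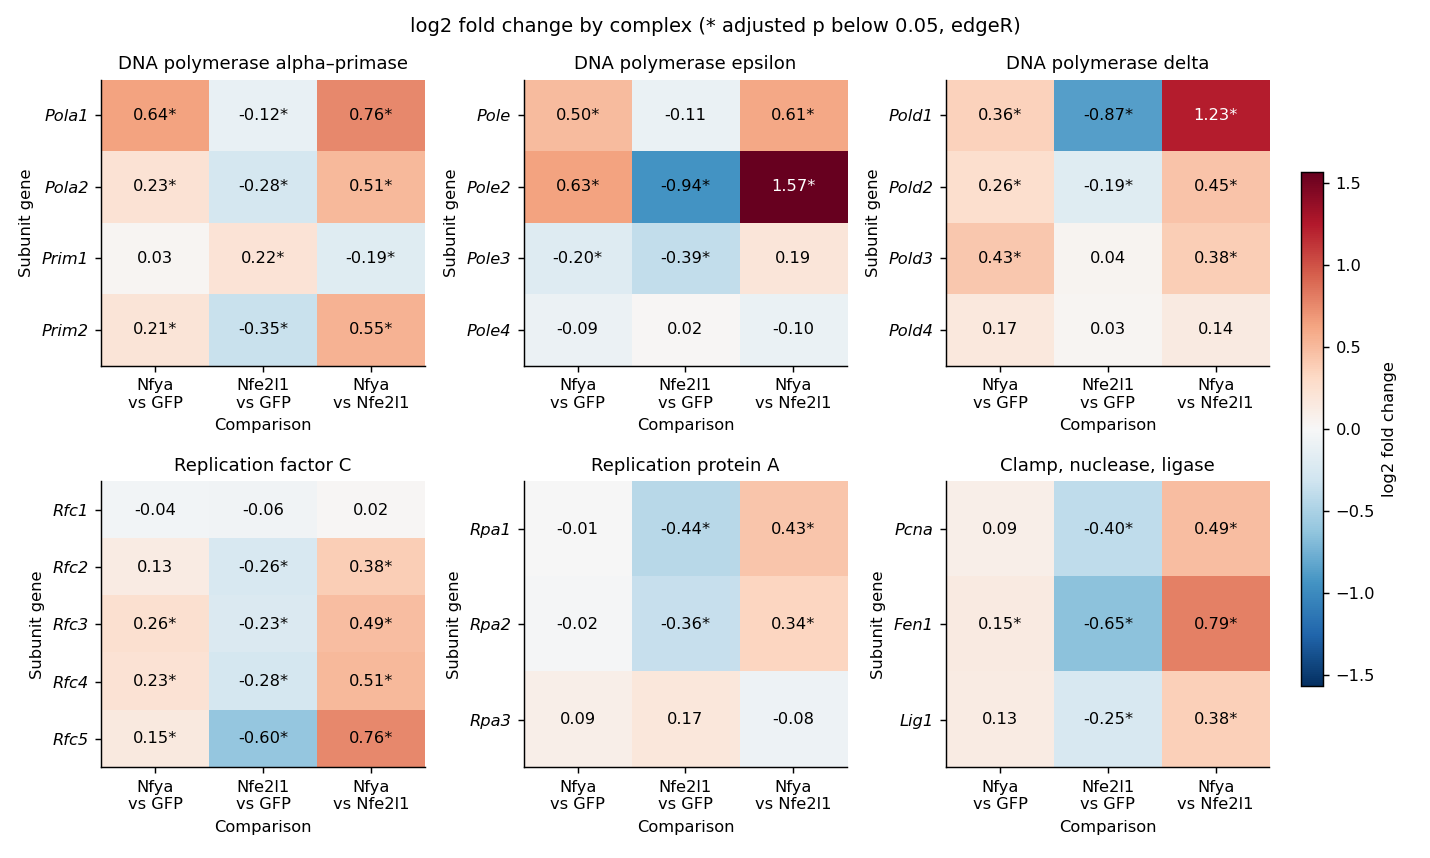
Log2 fold change of every subunit of the polymerase, clamp, clamp loader, RPA and fragment-joining groups (1 row of cells per gene, 1 panel per complex) in the 3 comparisons, in blue below 0 and red above it, with a star on calls at adjusted p below 0.05. Pole2 has the widest contrast between the viruses (0.63 and -0.94), and Prim1 differs from Pola1, Pola2 and Prim2.

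Of 22 genes that act beside the polymerases at the fork, 21 were tested. In the Nfya-labelled libraries 13 were called higher (61.9%) and 0 lower than in GFP (median 0.31), against 24.3% and 27.9% of all genes tested. In the Nfe2l1-labelled libraries 2 were higher (9.52%) and 12 lower (57.1%) than in GFP (median -0.28), against 28.9% and 29.7%. Between the virus groups 14 were higher (66.7%) and 1 lower (4.76%) in the Nfya-labelled libraries (median 0.74), against 25.2% and 25.4%. Chtf18, of the alternative clamp loader, stood at 45.9 ± 2.64 CPM in the Nfya-labelled libraries, 16.0 ± 1.02 CPM in the Nfe2l1-labelled libraries and 23.3 ± 1.30 CPM in GFP (SD, n = 3 each). The exonuclease gene Exo1 had 43.3 ± 2.87, 13.4 ± 1.92 and 23.8 ± 2.80 CPM in the same order of groups. Both were called in opposite directions by virus, where 2.3% of all genes tested were. So were the PCNA unloader gene Atad5, the checkpoint mediator gene Clspn, the PCNA-associated gene Pclaf, the topoisomerase gene Top2a, and Gins3, Mcm10 and Wdhd1. With the Nfe2l1 virus the calls of Top2a (-0.09, adjusted p = 0.0353) and Pclaf (-0.32, adjusted p = 0.0490) were near the threshold. The Nfe2l1-labelled libraries overlapped with GFP for Top2a. Timeless, of the fork protection complex, was not called with the Nfya virus (0.09 ± 0.05, adjusted p = 0.142) but fell by 1.10 ± 0.06 with the Nfe2l1 virus (adjusted p = 3.40e-10). Its partner Tipin, named after its values were seen, rose by 0.32 ± 0.07 with the Nfe2l1 virus (adjusted p = 0.00160).

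The 6 MCM helicase genes, whose products unwind the template ahead of the polymerases, were all called lower in the Nfe2l1-labelled libraries than in GFP (median -0.53), and 3 of them, Mcm3, Mcm5 and Mcm7, were called higher in the Nfya-labelled libraries (median 0.09). Between the virus groups all 6 were higher in the Nfya-labelled libraries, with Mcm3 at 0.81 ± 0.04 and Mcm6 at 0.71 ± 0.04. The 10 genes of mitosis were called higher without exception with the Nfya virus, with a median of 0.78. In the Nfe2l1-labelled libraries 4 of them were called lower, with a median of -0.14. Of all genes tested, 24.3% were called higher with the Nfya virus and 29.7% lower with the Nfe2l1 virus. Between the virus groups, 25.2% of all genes were higher in the Nfya-labelled libraries. The medians in the Nfya-labelled libraries thus ran from 0.09 (MCM) and 0.19 (the 10 fork genes) to 0.78 (mitosis), and those in the Nfe2l1-labelled libraries from -0.14 (mitosis) and -0.27 (the 10 fork genes) to -0.53 (MCM). The differences between lists were not tested.

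**Figure D5:**
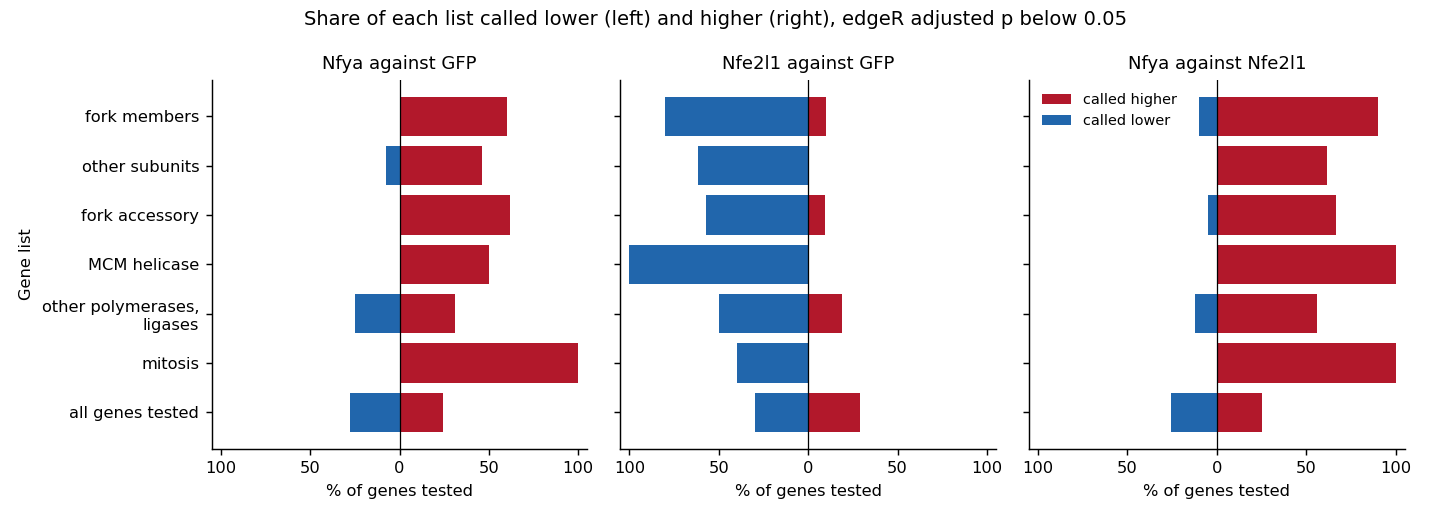
Share of the tested genes of each list, and of all genes tested, called lower (bars to the left) and higher (bars to the right) at adjusted p below 0.05, in percent, with 1 panel per comparison. All of the mitosis genes are called higher with the Nfya virus and all of the MCM genes lower with the Nfe2l1 virus, while 60% and 80% of the 10 fork genes (top bars) are called in those directions.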

How the data were processed

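The 10 genes, the gene lists and the alternatives were chosen with earlier results of these data known. The authors deposited whole-number counts per gene, and RPKM values for 14986 genes with the gene length in bases per the file headers. The authors also deposited 1 table per comparison of a virus with GFP, holding log2 fold changes and log2 CPM, the likelihood ratio score, p-value and FDR. Per the submitters' processing notes, edgeR 3.20.5, featureCounts 1.6.0 and FastQC 0.11.4 were used, and the builds listed are GRCm38, mm10 and rn6. Aligner, annotation and strand setting: not given in the sources used here. The RPKM table holds 1 line without a gene, which was left out. The counts were tested with edgeR 4.0.16 under R 4.3.3, after filterByExpr (14151 genes) and TMM scaling. The quasi-likelihood F test was run in 1 fit of the 9 libraries, with no covariate besides group, and adjusted by Benjamini-Hochberg over all genes tested and called below 0.05. The SE was derived as |log2 fold change| divided by √F. This SE can understate the uncertainty and need not match the p-value. For Lig1 in Nfya against GFP it was 0.063, with an unadjusted edgeR p of 0.138, and DESeq2 gave an SE of 0.129. The test was checked on simulated data. CPM in the text is scaled by TMM.

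Depth limits precision for the scarcer genes, and replicate numbers did not pair the libraries (correlations of deviations of same-numbered libraries -0.07 to 0.05). Any gene of a list with at most 13 genes could be named, and from longer lists those with the 4 smallest p in a comparison or with opposite calls against GFP. Tipin lies outside this rule and was named after its values were seen. Alternatives were DESeq2 1.42.0, RLE, upper quartile and library-total scaling, no filter or a mean of 5 CPM, only the 6 libraries compared, a replicate block, a threshold of 0.01, limma 3.58.1 on log2(RPKM + 0.5) or log2(RPKM + 0.1), an assumed ceiling of 1.6 counts per base, each library left out, and, added after seeing the data, the Nfya libraries summed to 1. No coordinates were taken from the count files. Promoter windows and their coordinates are RefSeq's for GRCr8, a build other than those in the notes, and were used only for their letters.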

Additional observations from a re-analysis of the deposited data

How the results depend on the processing

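The alternatives followed the log2 fold changes of the 10 fork genes and the counts of calls; in those, no called log2 fold change reversed. Single genes of the other lists and the ratios were not run under them. The 9 higher and 1 lower of the 10 fork genes between the Nfya- and Nfe2l1-labelled libraries held in all 22 alternatives. Against GFP, 5 to 7 were higher and 0 lower with the Nfya virus, and 1 higher and 5 to 9 lower with the Nfe2l1 virus. DESeq2 called 5 lower there, where edgeR called 8, without Pola1, Rfc3 and Lig1; leaving out each library gave 6 to 9. Over all genes, edgeR called 3953 lower for Nfya against GFP and 3597 lower for Nfya against Nfe2l1, and DESeq2 2486 and 2392. The 1 lower call among other subunits for Nfya against GFP (Pole3) became 0 under DESeq2, RLE, upper quartile or library-total scaling, a mean of 5 CPM, only the 6 libraries, the replicate block, the threshold of 0.01, both RPKM fits and the summed Nfya libraries, and 0 to 1 with each library left out. Both RPKM fits called 1 other subunit higher for Nfe2l1 against GFP, where edgeR called 0. DESeq2 called 0 accessory genes lower for Nfya against Nfe2l1, where edgeR called 1 (Tipin). The causes were not tested.

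The replicate block, which joins libraries by a number they share only by name, gave 3371 higher and 3849 lower genes for Nfya against GFP, with 6 and 0 of the fork genes. For Nfe2l1 against GFP it gave 4040 and 4097 genes, with 1 and 7 of the fork genes, and for Nfya against Nfe2l1 3428 and 3501, with 9 and 1. No scaling moved the median of all genes by 0.1 or more on the log2 scale, but smaller shifts changed the balance of calls. With upper quartile factors 52.7% of calls were higher for Nfya against GFP, against 46.5% with TMM. For Nfya against Nfe2l1 these shares were 57.1% and 49.7%. Pcna was called for Nfya against GFP under upper quartile factors (0.12, edgeR adjusted p = 0.0203).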

Other observations

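Of 16 polymerases and ligases that do not drive the fork, 5 were called higher (31.2%) and 4 lower (25%) in the Nfya-labelled libraries against GFP, shares near the 24.3% and 27.9% of all genes tested. Against GFP, 3 were higher in the Nfe2l1-labelled libraries (18.8%) and 8 lower (50%), against 28.9% and 29.7% of all genes. Between the virus groups 9 were higher (56.2%) and 2 lower (12.5%) in the Nfya-labelled libraries, against 25.2% and 25.4% of all genes. Primpol, a primase-polymerase that restarts stalled forks, rose by 0.93 ± 0.08 with the Nfya virus (adjusted p = 5.21e-08) and stood at 0.21 ± 0.09 with the Nfe2l1 virus (adjusted p = 0.0691). Polq, the polymerase of microhomology-mediated end joining, rose by 0.65 ± 0.07 with the Nfya virus (adjusted p = 9.61e-07) and stood at 0.01 ± 0.08 with the Nfe2l1 virus. The repair polymerase gene Poll rose with both (0.30 ± 0.05 and 0.34 ± 0.05), and Polh, the polymerase that bypasses ultraviolet lesions, fell with both (-0.27 ± 0.06 and -0.49 ± 0.06). Lig3, the repair and mitochondrial ligase, rose by 0.46 ± 0.03 with the Nfe2l1 virus (adjusted p = 2.83e-09), where Lig1 was called lower, and stood at 0.02 ± 0.03 with the Nfya virus.

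Over the 9 libraries, the log2 CPM most like the mean of the 10 fork genes, among 11931 other genes with a mean of at least 5 CPM, were those of Ercc6l (Pearson r = 0.996), Rapgef4 (0.995), Hjurp (0.991), Pole2 (0.990), Itga8 (0.990) and Uhrf1 (0.990). For Pola1 alone they were Pole and Cdca2 (r = 0.996 each) and Top2a (0.996), and for Pcna alone Klhl23 (0.992), Mmd (0.992) and Mcm2 (0.991). Each fork gene against the mean of the other 9 gave r between 0.807 (Rpa2) and 0.973 (Rfc3), except Prim1 at -0.784. These values describe libraries that share 3 viruses and the same scaling, so they rest mostly on the differences between the 3 groups.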
